A study of Mus musculus and Rattus norvegicus with 32 samples.

Results

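Nell2, Kitlg, Efnb2, Fam81a, Fignl1, Ccdc107, Pla2g5 and Tmod1 are 8 genes taken from those that differed most clearly between rat cardiomyocytes given METTL5 and rat cardiomyocytes given GFP. They are 8 of the 32883 genes in the rat table and 8 of the 55487 genes in each mouse table, where Kitlg is listed as Kitl. Because they were chosen on the rat difference, their rat values are a description. The question was whether they change in the opposite direction in mouse hearts that lack METTL5.

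METTL5 is a methyltransferase that places N6-methyladenosine on the RNA of the small ribosomal subunit. RNA was sequenced in 4 libraries per group. Neonatal rat ventricular myocytes (NRVMs) were prepared at postnatal day 2, with a preplating step meant to remove fibroblasts. Adenovirus delivered either METTL5, in the AdMETTL5 group, or GFP, in the AdGFP group, and both groups received 20 μM phenylephrine (PE), an adrenergic agonist that induces hypertrophy, for 24 h. Mouse hearts were compared as METTL5-KO with Ctrl at 1 month, as METTL5-cKO with Ctrl at 3 months, and as METTL5-cKO with Ctrl at 4 weeks after transverse aortic constriction (TAC), which overloads the left ventricle. The labels give the TAC mice an age of 3 months as well. The METTL5-cKO mice carry floxed Mettl5 exons cut by Myh6-Cre, which is active in cardiomyocytes, so the other cells of the heart keep the gene. The METTL5-KO mice lack it in the whole animal. The hearts compared at 3 months without TAC had no sham operation that the labels name, so TAC and the sequencing table cannot be told apart. Each mouse comparison has its own Ctrl libraries.

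The 8 genes serve different functions. NELL2 is a secreted glycoprotein that binds ROBO3 and the receptor kinase ROS1 in neurons and the epididymis. Kitlg encodes stem cell factor, the ligand of the receptor kinase KIT, which is made by endothelial and other stromal cells. Ephrin-B2 (Efnb2) is a membrane ligand of EphB4 and other Eph receptors and a marker of arterial endothelium. FIGNL1 is an AAA ATPase that acts in homologous recombination, and PLA2G5 is a secreted phospholipase A2 that frees fatty acids from phospholipids. Tropomodulin 1 (Tmod1) caps the pointed ends of the actin filaments in the sarcomere of cardiomyocytes. Fam81a and Ccdc107 encode coiled-coil proteins about which little is known.

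In the mouse genome (GRCm38), Nell2 lies on chr15:95075230-95528559 (minus strand), Kitl on chr10:100015630-100100416 (plus), Efnb2 on chr8:8617434-8661242 (minus), Fam81a on chr9:70088511-70142560 (minus) and Fignl1 on chr11:11787431-11808962 (minus). Ccdc107 (chr4:43492900-43495921, plus), Tmod1 (chr4:46038935-46116032, plus) and Pla2g5 (chr4:138799244-138863482, minus) share chromosome 4. The exons of Ccdc107 overlap those of Rmrp on the opposite strand over 124 nt, and those of Tmod1 overlap Tstd2 over 1287 nt. Whether counting used strand is not given in the sources used here, so reads of these pairs could be mixed.

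RefSeq promoter windows of GRCm38.p6 were found for 7 of the 8 genes, in 8 windows with 250 bases before the start site, and none was found for Nell2. The windows of Tmod1, Ccdc107 and Fam81a and a window of Pla2g5 lie inside the positions given above for the gene. The motif M-CAT (CATTCC, the site of TEAD factors, searched on both strands) was in 4 of the 8 windows, those of Tmod1 and Efnb2 and both of Pla2g5, against 12.6% of all 32851 windows. A MEF2 site was in the window of Ccdc107, against 2.92% of all windows. The interferon element ISRE (2.98% of all windows), the CRE (TGACGTCA, 1.55%), the AP-1 site (TGANTCA, 6.75%), the E-box (CACGTG, 6.02%), the CArG box (1.47%) and the E2F site (1.86%) were in none of the 8 windows, and the windows of Kitl, Fam81a and Fignl1 held no motif of those searched. The M-CAT-bearing sequences before the start of a gene that rose in NRVMs and of a gene that fell there are shown to place both motifs, with M-CAT in capitals (in Efnb2 as its reverse complement). Both are on the minus strand and are written 5′ to 3′ on that strand, at chr8:8661243-8661492 for Efnb2 and chr4:138863563-138863719 for Pla2g5.
Efnb2: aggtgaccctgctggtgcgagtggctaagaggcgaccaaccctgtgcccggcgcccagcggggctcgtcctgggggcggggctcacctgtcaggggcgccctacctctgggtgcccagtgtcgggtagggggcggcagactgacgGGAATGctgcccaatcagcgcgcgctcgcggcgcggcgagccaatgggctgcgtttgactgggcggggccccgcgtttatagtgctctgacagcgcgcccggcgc
Pla2g5: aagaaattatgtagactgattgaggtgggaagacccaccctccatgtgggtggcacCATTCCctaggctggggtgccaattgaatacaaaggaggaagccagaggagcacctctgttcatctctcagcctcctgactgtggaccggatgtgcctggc
A match of letters does not show that a factor binds.

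Total counts per library lay between 14324700 and 18085339 in NRVMs and between 19899033 and 21804907 in the hearts. The labelled cells were checked by marker genes. In NRVMs the summed level of 10 cardiomyocyte markers was 29600 to 33900 CPM (counts scaled to library sizes that edgeR's TMM method adjusted) with AdGFP and 11200 to 12200 with AdMETTL5, and that of 9 fibroblast markers was 11600 to 12200 and 9180 to 10100. Fibroblast marker RNA was thus present in both NRVM groups despite the preplating. The virus carries the coding sequence of human METTL5, so the count of rat Mettl5 is no direct measure of it. Whether reads from the virus were counted as rat Mettl5 was not tested. Rat Mettl5 itself was at 17.0 ± 0.774 CPM (SD, n = 4) in AdGFP cells and 21.2 ± 1.76 in AdMETTL5 cells. Mouse Mettl5 did not separate the genotypes by the count of the whole gene. Its log2 fold change was 0.22 at 1 month (adjusted p = 0.973, edgeR's quasi-likelihood test), -0.18 at 3 months (adjusted p = 0.884) and -0.04 after TAC (adjusted p = 0.874). This count covers the whole gene, and the floxed exons by themselves were not analysed here, so it does not check the deletion.

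In NRVMs, 4 of the genes were higher and 4 were lower with AdMETTL5, and the 4 libraries of each group did not overlap for any of them. The same holds for 48.4% of the 15041 tested genes, and nothing is read from it because the 8 genes were chosen on this difference. In this comparison 27.1% of the tested genes were higher and 25.7% lower at an adjusted p under 0.05, and 5.85% were also past an absolute log2 fold change of 1, which the study called dysregulated. All 8 genes are within the first 12 by p-value. The genes Lamb3, Ankrd1, Myh7 and Ccne2 share those ranks and were not chosen. Just inside the list is Tmod1 at rank 12 with a log2 fold change of -1.32. Just outside it are Parp14 at rank 13 with 2.54 and Mybl2 at rank 14 with 1.61.

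The ligands rose. Nell2 had 1.48, 1.38, 1.63 and 1.16 CPM in the AdGFP libraries and 22.4, 20.3, 21.6 and 22.4 CPM in the AdMETTL5 libraries. It went from 20 to 28 counts per library to 302 to 353 counts, a fold of 15.2 (log2 fold change 3.93, standard error 0.102). Kitlg had 11.0, 12.6, 15.5 and 13.5 CPM with AdGFP and 66.8, 66.9, 76.5 and 67.8 with AdMETTL5, a fold of 5.28 (2.40, standard error 0.0887). The lowest AdMETTL5 library lies above the highest AdGFP library. Efnb2 had 42.5, 43.4, 37.4 and 39.4 CPM with AdGFP and 129, 121, 132 and 121 with AdMETTL5, a fold of 3.10 (1.63, standard error 0.0578). Fam81a rose as well, from 5.10, 4.09, 4.14 and 4.42 CPM to 21.6, 23.9, 22.2 and 23.0 CPM, a fold of 5.10 (2.35, standard error 0.0843).

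The enzymes and the actin capping protein fell. Fignl1 had 82.9, 85.9, 83.5 and 82.3 CPM with AdGFP and 27.2, 29.4, 26.7 and 29.8 with AdMETTL5, 2.96-fold lower (log2 fold change -1.56, standard error 0.0508). Pla2g5 had 73.1, 73.1, 71.1 and 65.7 CPM with AdGFP and 27.0, 25.8, 24.7 and 24.9 with AdMETTL5, 2.76-fold lower (-1.47, standard error 0.055). Both enzymes remained well counted, with at least 376 counts in every library. Tmod1 had 227, 244, 213 and 221 CPM with AdGFP and 92.6, 93.8, 89.4 and 87.8 with AdMETTL5, 2.49-fold lower (-1.32, standard error 0.0502). Ccdc107 had 71.1, 68.9, 65.7 and 66.9 CPM with AdGFP and 24.8, 24.8, 22.3 and 24.1 with AdMETTL5, 2.84-fold lower (-1.51, standard error 0.0532).

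**Figure D1:**
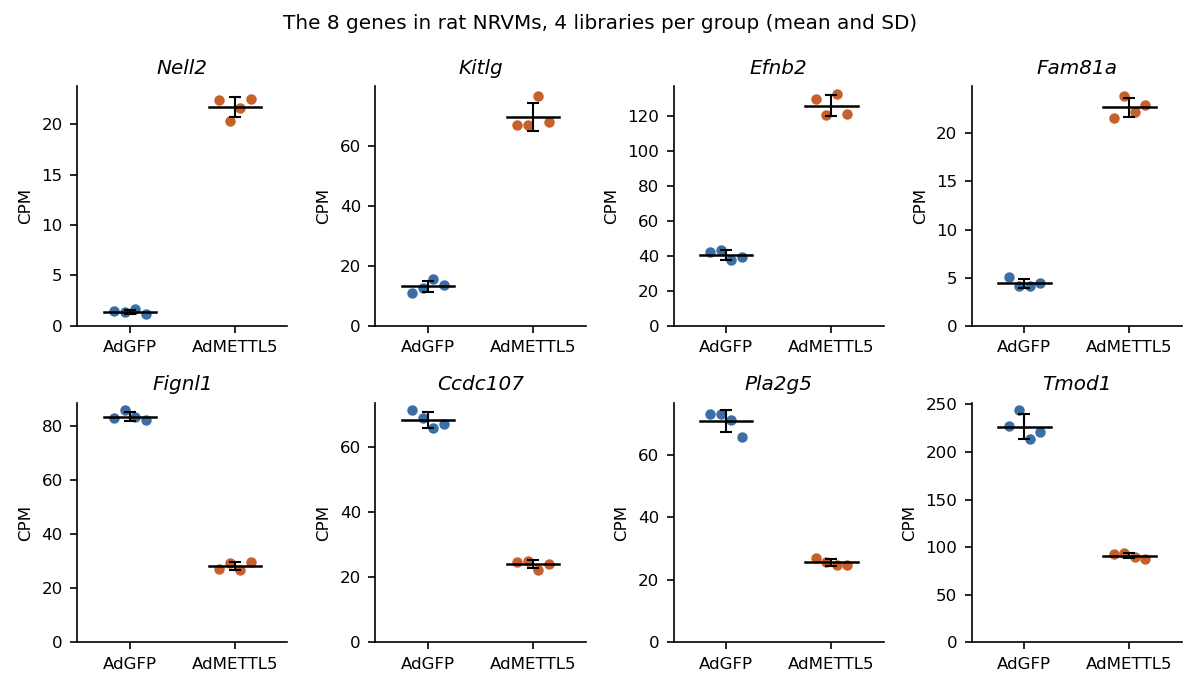
CPM of the 8 genes in each NRVM library with AdGFP (blue) or AdMETTL5 (orange), all with PE; the line and bar give the mean and SD of 4 libraries, and every axis starts at 0. The upper row holds the genes that were higher with AdMETTL5 and the lower row those that were lower, and in no panel do the groups overlap.

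Cardiomyocyte markers and interferon-stimulated genes also differed between these libraries. All 10 cardiomyocyte markers passed the test and were lower with AdMETTL5, with a median log2 fold change of -1.17 against -0.00218 over all tested genes. All 20 interferon-stimulated genes of the list were higher, with a median of 3.78. After TAC 10 of the 20 were lower in METTL5-cKO hearts and none was higher, where 6.10% of all tested genes were lower, with a median of -0.49 and sums of 208 to 236 CPM in Ctrl and 129 to 162 in METTL5-cKO hearts. That count was 6 with library size alone, without the filter on low counts, or without Ctrl TAC library 1, 3 or 4 or METTL5-cKO TAC library 2. Summed endothelial markers in NRVMs were 63.8 to 67.5 CPM with AdGFP and 79.1 to 84 with AdMETTL5. Of 8 tested endothelial markers there, 2 were higher and none lower, near the 27.1% of all tested genes that were higher. The count of higher ones was 3 with library size alone and 1 without AdGFP library 4. The part of these shifts in the values of the 8 genes was not tested. Scaling by library size alone moved the median of all genes by 0.135 on the log2 scale. The smallest absolute log2 fold change of the 8 genes under any setting was 1.18, for Tmod1.

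In the hearts of 1-month-old mice, none of the 7 tested genes passed the test between METTL5-KO and Ctrl, where 1 of 16329 tested genes did (0.00612%, and the same 0.00612% with the minimum fold). Pla2g5 came nearest. It had 6.11 CPM in Ctrl library 1 and 13.8 to 16.6 CPM in the other Ctrl hearts, and 14.8, 25.7, 20.5 and 22.7 CPM in the METTL5-KO hearts. The highest Ctrl heart lies above the lowest METTL5-KO heart, so the groups overlap. The log2 fold change was 0.71 (95% confidence interval 0.0605 to 1.35, adjusted p = 0.973, edgeR's quasi-likelihood test), with an exact two-sided permutation p of 0.0857. Ctrl library 1 stood apart from the other Ctrl hearts in several of the genes. It held 82.1 CPM of Tmod1 against 160 to 181 in the others, 2.19 CPM of Fam81a against 7.43 to 10.9, and 19.4 CPM of Ccdc107 against 10.8 to 12.9. Its summed leukocyte markers were 314 CPM against 142 to 211, and its smooth muscle and pericyte markers 561 against 815 to 1030. Without it the log2 fold change of Pla2g5 was 0.47 (adjusted p = 0.752).

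The other tested genes at 1 month had log2 fold changes between -0.44 and 0.21. Kitl, the stem cell factor gene, was at 58.2, 63.9, 58.5 and 62.3 CPM in the Ctrl hearts and at 63.0, 65.3, 52.9 and 50.8 in the METTL5-KO hearts. Its interval was -0.31 to 0.18 on the log2 scale, where the log2 fold change in NRVMs was 2.40. The interval covers only the spread between these libraries, which may not be separate animals. Efnb2 (-0.04), Ccdc107 (-0.38, unadjusted p = 0.0597), Fam81a (-0.44) and Tmod1 (0.21) did not pass either. Fignl1 was at 0 to 50 counts per library, and its interval of -2.29 to 2.00 is too wide to read a direction from. Of all tested genes 3.01% had groups apart from each other, and none of the 8 genes did.

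At 3 months, none of the 6 tested genes passed the test between METTL5-cKO and Ctrl, where 12 of 16391 tested genes did (0.0732%, or 0.0488% with the minimum fold). Kitl had 67.9, 79.7, 92.0 and 64.8 CPM in the Ctrl hearts and 56.3, 56.8, 63.4 and 76.4 CPM in the METTL5-cKO hearts. Of the METTL5-cKO hearts, 3 lie below every Ctrl heart and library 4 lies among them. The log2 fold change was -0.27 (95% confidence interval -0.58 to 0.04, adjusted p = 0.788). Pla2g5 had 30.6, 23.3, 17.6 and 19.1 CPM in the Ctrl hearts and 34.4, 26.8, 21.5 and 23.3 CPM in the METTL5-cKO hearts, with a log2 fold change of 0.23 (-0.22 to 0.67, adjusted p = 0.943). Efnb2 (-0.15), Fam81a (-0.14), Ccdc107 (0.12) and Tmod1 (0.04) lay within 0.15 of 0. Their intervals were wider, at -0.74 to 0.45 for Efnb2, -0.65 to 0.37 for Fam81a, -0.17 to 0.41 for Ccdc107 and -0.27 to 0.36 for Tmod1. Fignl1 had 3 to 9 counts in each library and was not tested. The share of tested genes with groups apart was 4.23%, and none of the 8 genes was among them.

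After TAC, 2 of the 7 tested genes passed the test, and both were lower in METTL5-cKO hearts. Kitl, which had risen with AdMETTL5, was lower and so changed in the opposite direction. Pla2g5, which had fallen with AdMETTL5, was also lower and so changed in the same direction. In this comparison 6.57% of the 16340 tested genes were higher and 6.10% lower, and 2.90% were dysregulated. Neither gene reached an absolute log2 fold change of 1, so neither was dysregulated by the rule of the study.

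Kitl had 58.0, 82.4, 82.8 and 75.9 CPM in the Ctrl TAC hearts and 36.7, 43.6, 48.6 and 61.6 CPM in the METTL5-cKO TAC hearts. Ctrl library 1 lies below METTL5-cKO library 4, and the other 3 libraries of each group are apart. The level was 1.57-fold lower in METTL5-cKO hearts (log2 fold change -0.65, standard error 0.166, adjusted p = 0.0344, edgeR's quasi-likelihood test), with an exact two-sided permutation p of 0.0571, where 4 against 4 allows 0.0286 at the smallest. The call ended with library size scaling (-0.52, adjusted p = 0.0507), without the filter on low counts (-0.63, adjusted p = 0.0784) and when any of 6 of the 8 libraries was left out, with adjusted p from 0.0726 to 0.101. It was kept without Ctrl library 1 (adjusted p = 0.0317) and without METTL5-cKO library 4 (adjusted p = 0.00587).

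Pla2g5 had 16.7, 12.2, 13.1 and 17.5 CPM in the Ctrl TAC hearts and 8.02, 7.06, 6.55 and 12.2 CPM in the METTL5-cKO TAC hearts. The groups are apart, which holds for 18.6% of all tested genes, but METTL5-cKO library 4 lies next to the lowest Ctrl heart. The level was 1.76-fold lower (log2 fold change -0.82, standard error 0.202, adjusted p = 0.0318, edgeR's quasi-likelihood test), with an exact permutation p of 0.0286, the smallest that this design can give. The call ended without the filter on low counts (adjusted p = 0.0667) and when any library but METTL5-cKO library 4 was left out, with adjusted p from 0.052 to 0.0956. Without METTL5-cKO library 4 the log2 fold change was -1.04 (adjusted p = 0.00202).

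The other 5 tested genes did not pass after TAC. Efnb2 had 17.5, 24.4, 23.9 and 20.9 CPM in the Ctrl hearts and 12.4, 15.4, 15.5 and 20.8 CPM in the METTL5-cKO hearts, with a log2 fold change of -0.44 (-0.80 to -0.07, adjusted p = 0.101). Again library 4 of the METTL5-cKO hearts lies among the Ctrl hearts, and without it the value was -0.58 (adjusted p = 0.0169). Leaving it out also raised the share of all tested genes that passed to 11.8% higher and 11.6% lower. Tmod1 was at 222, 194, 164 and 195 CPM in the Ctrl hearts and at 224, 237, 232 and 198 CPM in the METTL5-cKO hearts, with a log2 fold change of 0.20 (-0.03 to 0.43, adjusted p = 0.214). Fam81a (-0.23, adjusted p = 0.313), Fignl1 (0.24, with 4 to 25 counts per library) and Ccdc107 (0.00, interval -0.25 to 0.25) complete the list.

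**Figure D2:**
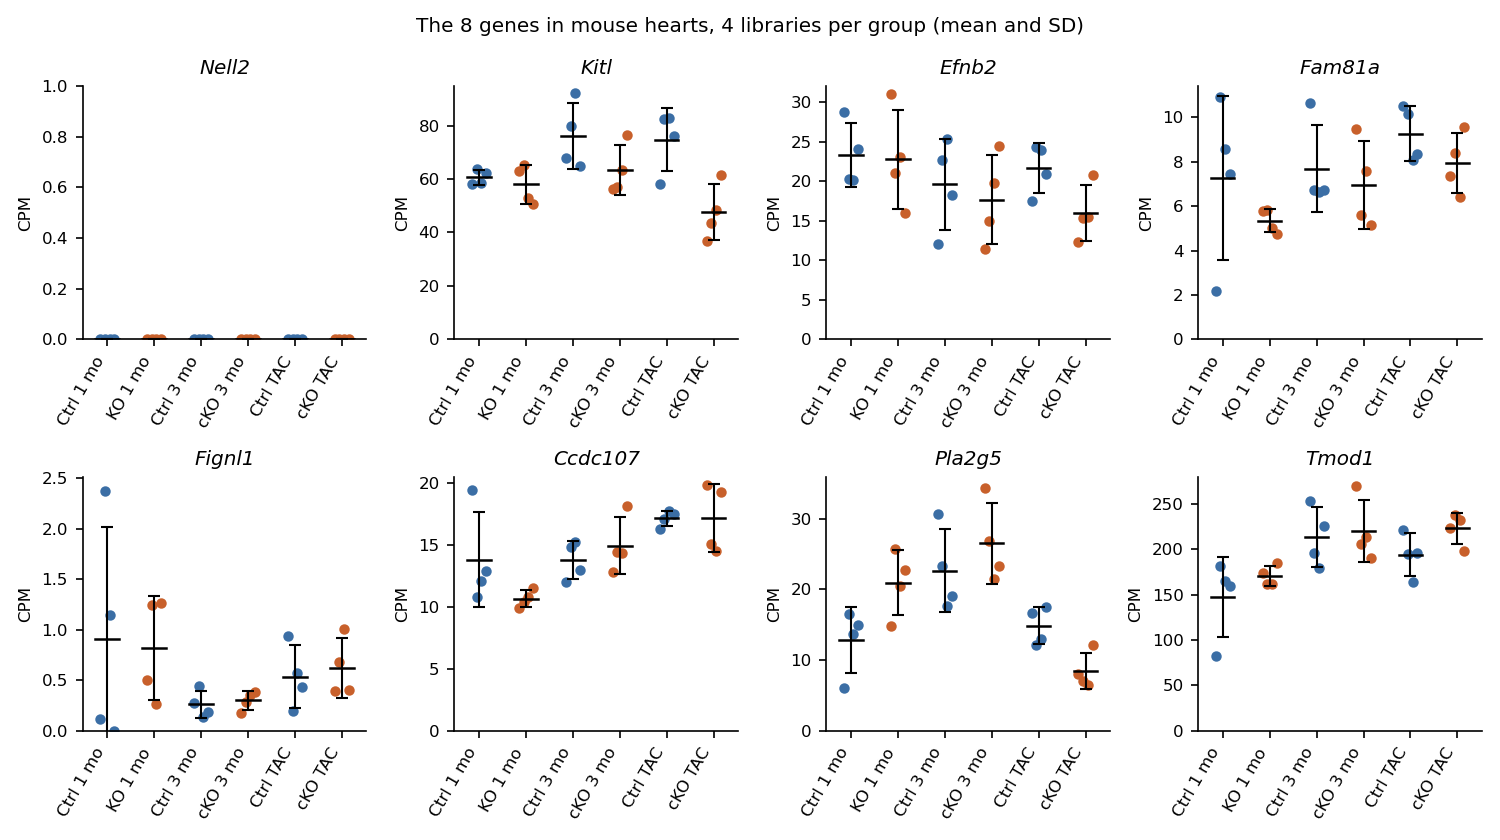
CPM of the 8 genes in each mouse library, with Ctrl in blue and METTL5-KO or METTL5-cKO in orange; the line and bar give the mean and SD of 4 libraries, and each pair of groups is scaled within its own table. Kitl and Pla2g5 are lower in the METTL5-cKO TAC hearts, and Nell2 is at 0 in all 24 libraries.

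An interaction term over 16 libraries then set the genotype effect after TAC against the effect in 3-month hearts, where 1 of 17070 tested genes passed (0.00586%). None of the 7 tested genes did. For Pla2g5 the difference of the log2 fold changes was -1.03 (95% confidence interval -1.67 to -0.39, unadjusted p = 0.00369, adjusted p = 0.189, edgeR's quasi-likelihood test), and without METTL5-cKO TAC library 4 it was -1.26 (adjusted p = 0.0191). Without that library 679 of 17353 tested genes passed (3.91%). For Kitl it was -0.37 (-0.85 to 0.11, adjusted p = 0.566). The other genes had differences from -0.27 for Efnb2 to 0.17 for Tmod1.

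**Figure D3:**
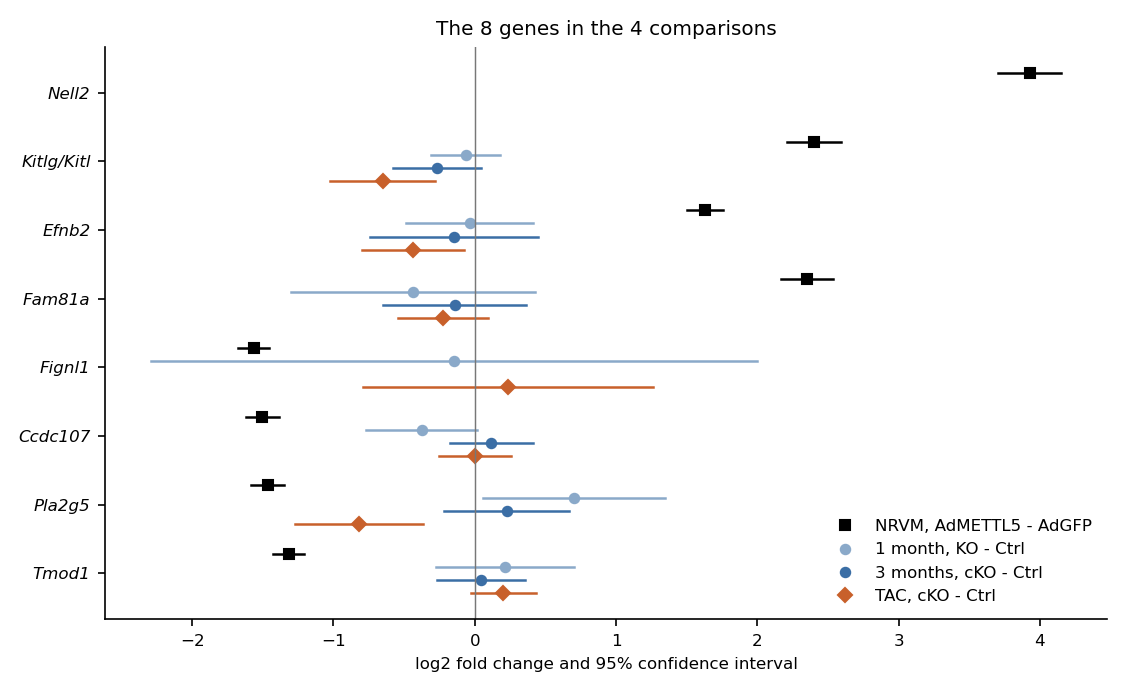
Log2 fold change of each gene, with its 95% confidence interval, in NRVMs (black squares), at 1 month (light blue), at 3 months (blue) and after TAC (orange diamonds); untested values are left out. All NRVM values lie beyond 1 on either side of 0, while the mouse values lie between -0.82 and 0.71.

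Nell2 is the gene with the largest fold in NRVMs among the 8, and it is listed at 0 in all 24 mouse libraries. The same holds for 20988 of the 55487 genes of the mouse tables (37.8%). A count of 0 allows up to 3 counts per library, which corresponds to 0.118 to 0.181 CPM in these hearts. A change of Nell2 between the genotypes was therefore not detectable at this depth. In NRVMs with AdGFP it was at 1.42 ± 0.198 CPM (SD, n = 4).

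When the 24 mouse libraries were scaled together and divided by exon length, Tmod1 was the highest in every group, from 39.0 to 55.5 CPM per kilobase. In Ctrl TAC hearts it was followed by Kitl at 12.3, Ccdc107 at 10.8, Pla2g5 at 5.03, Efnb2 at 3.08, Fam81a at 2.06 and Fignl1 at 0.108 CPM per kilobase. In METTL5-cKO TAC hearts Ccdc107 at 10.9 stood above Kitl at 7.92, and Pla2g5 at 2.88 stood beside Efnb2 at 2.30 CPM per kilobase. The gap between Kitl and Ccdc107 in the Ctrl TAC hearts was smaller than the SD of Kitl (1.89), and that between Pla2g5 and Efnb2 in the METTL5-cKO TAC hearts was smaller than the SD of Pla2g5 (0.863). Before length correction, Kitl ranged over 36.2 to 60.3 CPM in these METTL5-cKO TAC hearts and Efnb2 over 12.2 to 20.4. In the Ctrl groups Pla2g5 was at 13.5 ± 4.88 CPM at 1 month, 21.9 ± 5.70 at 3 months and 14.5 ± 2.59 after TAC (SD, n = 4).

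The marker genes of other cell types moved in the same TAC libraries. Lower levels of a gene in bulk tissue can come from fewer cells of a type or from less RNA per cell, and these cannot be told apart. Of 10 endothelial markers 6 were lower in METTL5-cKO hearts, and their summed level was 887 to 1030 CPM in Ctrl and 628 to 811 in METTL5-cKO hearts. Of 10 fibroblast markers 8 were higher, with sums of 618 to 815 and 987 to 3180. Of 10 cardiomyocyte markers 3 were lower (39700 to 44900 and 30500 to 38100), of 10 leukocyte markers 2 were higher (222 to 298 and 303 to 387), and of 10 smooth muscle and pericyte markers 2 were lower and 1 higher (823 to 881 and 675 to 834), or 1 lower and 2 higher with library size alone. These counts moved with single libraries. The endothelial count was 2 without Ctrl library 2 or 4 or METTL5-cKO library 1, 2 or 3, and 3 without Ctrl library 3. The fibroblast count was 2 without Ctrl library 4, and 4 without Ctrl library 2 or METTL5-cKO library 2. The cardiomyocyte count was 0 without Ctrl library 4 or METTL5-cKO library 2, 1 without Ctrl library 2, and 6 without METTL5-cKO library 4. The leukocyte count was 1 without Ctrl library 2 or 4 or METTL5-cKO library 1, 2 or 3, and the count of lower smooth muscle and pericyte markers was 4 without METTL5-cKO library 4 and 1 without any other library. No marker of these 5 lists was at 0 in all TAC libraries. METTL5-cKO library 4, where Kitl, Efnb2 and Pla2g5 were nearest to the Ctrl hearts, also had the endothelial sum nearest to Ctrl (811 CPM), the smooth muscle and pericyte sum nearest to Ctrl (834) and the cardiomyocyte sum nearest to Ctrl (38100). Its fibroblast sum (987) and its leukocyte sum (303) were the lowest of its group and nearest to Ctrl, while its interferon-stimulated sum (129) was farthest from Ctrl. The part of the cell makeup in the lower Kitl and Pla2g5 was not tested.

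**Figure D4:**
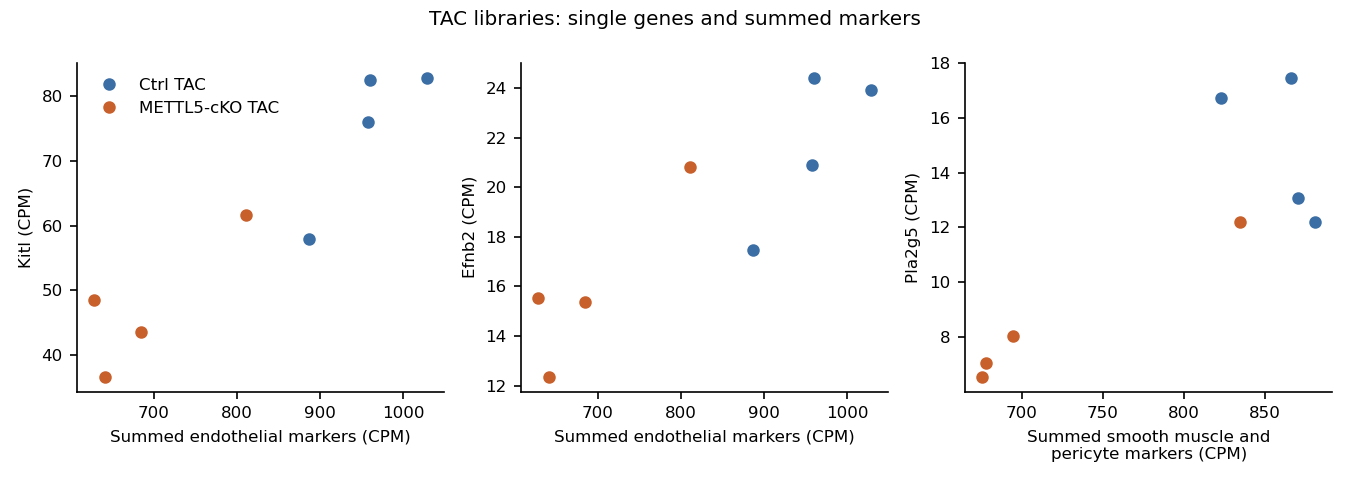
Level of Kitl and Efnb2 against the summed endothelial markers, and of Pla2g5 against the summed smooth muscle and pericyte markers, in the 8 TAC libraries (all axes in CPM and not starting at 0, Ctrl in blue, METTL5-cKO in orange). The METTL5-cKO library nearest to the Ctrl libraries is the same one in each panel.

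Over the 24 mouse libraries, with each table centred on its own mean, Kitl followed the summed endothelial markers with a Pearson r of 0.87 and Efnb2 followed them with 0.769. Kitl also had an r of 0.795 with the cardiomyocyte markers and of -0.809 with the fibroblast markers, and Efnb2 one of 0.492 and of -0.621. Pla2g5 followed the smooth muscle and pericyte markers with 0.821. Its r was 0.453 with the cardiomyocyte, -0.444 with the leukocyte, -0.24 with the fibroblast and 0.0297 with the endothelial markers. Kitl and Efnb2 had an r of 0.743 with each other, and Tmod1 and Ccdc107 one of -0.808. These values are descriptions, since libraries of one group share their genotype and each library its depth and cell makeup. Single libraries can weigh on them. Ctrl 1-month library 1 had the lowest Tmod1 (82.1 CPM) and the highest Ccdc107 (19.4 CPM) of the 1-month hearts. The same library had the lowest Pla2g5 (6.11 CPM) and the lowest smooth muscle and pericyte sum (561 CPM) of these hearts. No r was computed without it. The genes most like Kitl over 15543 genes were She (0.925), Npr1 (0.901) and Tspan13 (0.899). Those most like Tmod1 were Casq2 (0.953), the calsequestrin of the cardiac sarcoplasmic reticulum, Igsf1 (0.926) and Ctnna1 (0.91). Efnb2 was most like Fancb (0.899), Srrm1 (0.89) and Tsnax (0.88), and Pla2g5 most like Tecr (0.867), Phkg1 (0.856) and Reep5 (0.851). Fam81a was most like Adamts9 (0.844), Aplp2 (0.84) and Rnf123 (0.813), and Ccdc107 most like Aup1 (0.882), Use1 (0.882) and Gpx4-ps1 (0.866).

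Partners and relatives of the 8 genes were read from fixed lists. The counts in this and the following paragraphs stand beside the shares of all tested genes. In NRVMs 27.1% of these were higher and 25.7% lower, and after TAC 6.57% were higher and 6.10% lower. No set test was run, so a count near these shares is no result about a list. No gene of these lists passed the test at 1 or 3 months. In NRVMs the receptor Kit was higher with AdMETTL5, from 24.1 ± 1.04 to 36.5 ± 3.14 CPM (log2 fold change 0.60), beside its ligand Kitlg, and the adaptor Sh2b3, which dampens KIT signaling, was lower (-0.56). Of the 17 KIT signaling genes tested, 7 were higher and 6 lower, with a median of -0.04. After TAC 1 of 17 passed, the adaptor Gab2 (0.86, adjusted p = 0.024), and the receptor Kit had a log2 fold change of -0.32 (adjusted p = 0.294). Of 5 tested NELL2 partners, the receptor Ros1 (1.78) and the ROBO ligand Slit2 (0.29) were higher in NRVMs and Slit3 (-0.43) was lower, and none of 5 passed after TAC. Mouse Ros1 was listed at 0 in all libraries of each mouse table.

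Of 16 tested Eph receptors and ephrins, 7 were higher and 3 lower in NRVMs with a median of 0.13. Epha3 (1.07), Epha2 (0.71), Epha7 (0.92) and the ephrin-B2 receptor Ephb4 (0.22) were among the higher ones, while Efnb3, the paralog of Efnb2, was lower (-1.01). After TAC 1 of 13 was higher and 2 were lower, with a median of -0.23. Efnb3 was lower in METTL5-cKO hearts (50.4 ± 8.59 to 25.7 ± 7.82 CPM, log2 fold change -0.97, adjusted p = 0.0233), as was Ephb1 (-0.99, adjusted p = 0.00621), and Efna5 was higher (0.76, adjusted p = 0.0139). Efnb3 was thus lower in both comparisons, like Pla2g5. Ephb4 had a log2 fold change of -0.32 after TAC (adjusted p = 0.121). Of 17 arterial and Notch genes 3 were lower after TAC, the receptor Notch1 (-0.53) and the ligands Dll4 (-0.49) and Jag2 (-0.54), with adjusted p of 0.0279, 0.0147 and 0.0203. Of 15 tested in NRVMs 4 were higher, among them Notch1 (0.51) and Jag2 (0.43), and 4 lower.

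Fignl1 fell in NRVMs. Of 18 homologous recombination genes there, 7 were higher, such as Rpa1 (1.02), Brca1 (0.68) and Brca2 (0.69), and 3 lower, such as Zswim7 (-0.86), with a median of 0.09. Zswim7 was also the 1 of 16 that passed after TAC, where it was lower (-0.53, adjusted p = 0.0372). Among AAA ATPases related to FIGNL1, 1 of 6 was higher and 1 lower in NRVMs, or 2 higher and none lower with library size alone, and after TAC 1 of 8 passed, Fign, which was lower (-0.86, adjusted p = 0.0139).

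Pla2g5 fell in NRVMs. Of 13 phospholipase A2 and eicosanoid genes tested there, 5 were higher, among them Alox5 (1.18), Pla2g2a (0.72) and Pla2g7 (0.70), and 3 were lower, with a median of -0.04, or 6 higher and 1 lower with library size alone. After TAC 4 of 18 were higher in METTL5-cKO hearts, the cyclooxygenase Ptgs2 (1.28, adjusted p = 0.0113), the prostacyclin synthase Ptgis (1.02, adjusted p = 0.0202), Pla2g7 (0.90, adjusted p = 0.0134) and Lta4h (0.37, adjusted p = 0.0139), and Alox5 was lower (-0.50, adjusted p = 0.0168). Of 17 actin filament genes related to Tmod1, 6 were lower in NRVMs, among them Actc1 (-1.49), Actn2 (-1.20), Lmod2 (-0.86) and Tpm1 (-0.87), and 3 higher, where 25.7% of all tested genes were lower. With library size alone 6 were lower and 7 higher, and the median went from -0.07 to 0.07. Actn2 is also one of the cardiomyocyte markers. After TAC 1 of 19 passed, the skeletal actin gene Acta1, which was higher (1.62, adjusted p = 0.00227). Of the list genes that passed after TAC, Acta1, Efna5, Ephb1, Fign, Pla2g7 and Ptgs2 also passed under each of 13 alternatives, and the others lost the call under at least 1. Fam81b, the paralog of Fam81a, was not tested in any comparison and was listed at 0 in all mouse libraries.

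**Figure D5:**
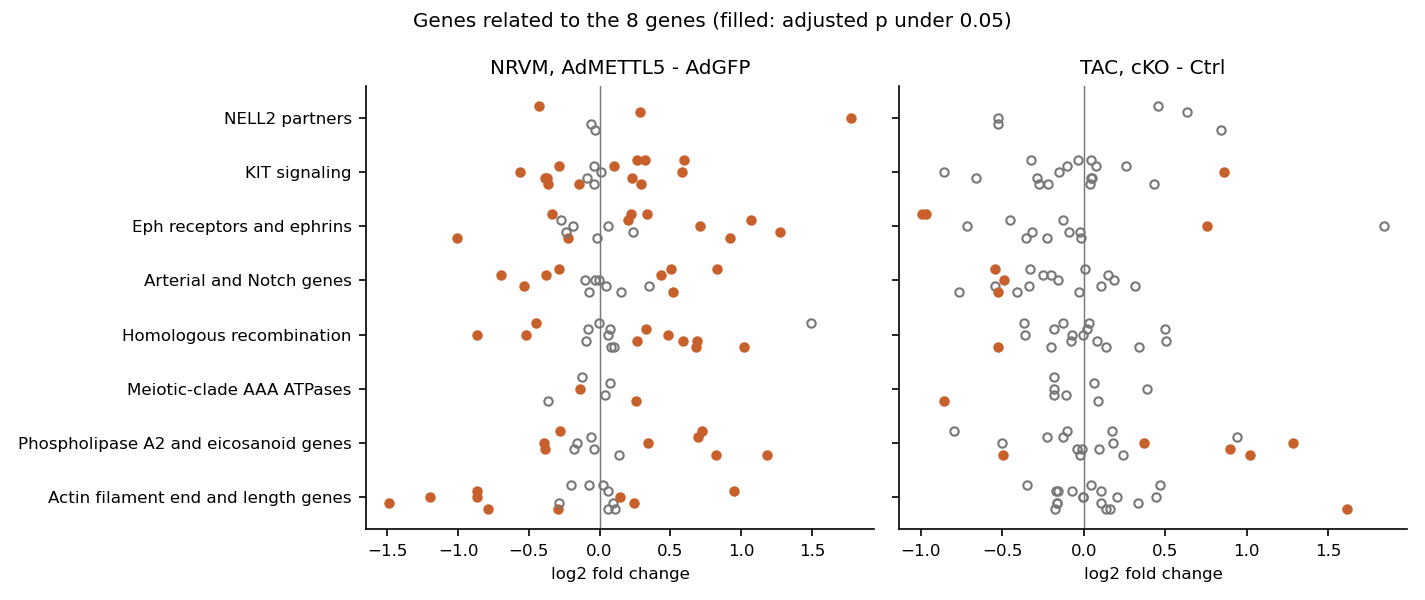
Log2 fold changes of the tested genes of each related list in NRVMs (left) and after TAC (right), with genes at an adjusted p under 0.05 filled and the others open. Passing genes lie on both sides of 0 in every list in NRVMs (with library size alone, in every list but the AAA ATPases), and Acta1 at 1.62 is the highest passing gene after TAC.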

How the data were processed

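The authors aligned the reads with HISAT2 2.0.4 (mouse GRCm38, rat Rnor_6.0) and made the deposited estimated counts per gene with StringTie 2.1.4, and the submitters' processing notes name DESeq2 1.4.5. The values are whole numbers without scaling. They had been planned as plain counts and were tested as estimated counts. The 32 columns were assigned by their names, at 1 month to single samples and elsewhere to a group, where library numbers ascend with the column names. At 3 months and after TAC the column names carry a different number for each library, which reads as an animal number. For the other libraries nothing says whether they are separate animals or cultures, so p-values there measure a spread that may be technical.

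Each table was fitted alone by the quasi-likelihood test of edgeR 4.0.16 under R 4.3.3, after TMM scaling and the filterByExpr filter (at least 10 counts, total at least 15), with Benjamini-Hochberg adjustment and a threshold of 0.05. Intervals cover 95%. Exact permutation tests used mean log2 CPM (prior count 2) over 70 labelings. The floor was 3 counts and covers counting error only. No pair of libraries was a duplicate (smallest chi-square per degree of freedom 2.2). Of 55487 mouse IDs, 99.38% were found in GENCODE M21. Rat positions were not used here.

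The 8 genes, the lists and the rule for named genes were chosen with earlier results of these data known. The rule names the 8 genes, at most 4 genes per list by adjusted p, the 3 genes most like each gene in the mouse libraries, Mettl5, and partners given by value, of which 1 is not reported here. Genes that share ranks with the 8 were named after their values were seen. Alternatives were DESeq2's Wald test (1.42.0), its size factors, library size alone, other filters, other thresholds, each library left out in turn and, at 1 month, the replicate block.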

Additional observations from a re-analysis of the deposited data

Results flagged for a closer look

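In 58 groups of 4 libraries of the 8 genes, 2 held a library far from the other 3 by Dixon's ratio, where chance flags about 1 in 20. Kitlg was at 76.5 CPM in AdMETTL5 library 3 against 66.8 to 67.8 in the others, which is small beside the difference from AdGFP. Fam81a was at 10.6 CPM in Ctrl 3-month library 1 against 6.65 to 6.74 in the others, and without it the log2 fold change of Fam81a at 3 months was 0.06 (adjusted p = 0.97, edgeR's quasi-likelihood test) in place of -0.14.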

How the results depend on the processing

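In NRVMs all 8 genes passed under every alternative, and nothing is read from this because they were chosen on that difference. At 1 and 3 months none passed under any alternative but the unadjusted threshold, at which 1 gene passed at 1 month. After TAC the count of 2 was 2 with DESeq2's test, its size factors and the stricter filter, 1 with library size alone, 0 without the filter, 0 with the minimum fold and 3 at an unadjusted p, and 0 to 3 with a library left out. In the interaction it was 0 under the other scaling and test and 0 to 1 with a library left out. Over all genes the interaction passed for 1 with edgeR, for 163 higher and 68 lower with DESeq2's test, and for 372 and 307 without METTL5-cKO TAC library 4. Leaving out METTL5-cKO TAC library 4 raised the genes passing after TAC from 1074 higher and 997 lower to 1973 and 1926. Library size scaling moved the split of all genes to 5872 higher and 2343 lower in NRVMs and to 2060 and 524 after TAC, from 4082 and 3867 in NRVMs. With it 3 of 5 NELL2 partners and 5 of 19 actin filament genes were higher after TAC. The cause was not tested.

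Of 495 gene values under alternatives, 454 kept direction and side of the threshold, 16 lost a call, 2 gained one and 23 changed sign, none of a called gene. The 495 include the NRVM values of genes chosen on that difference and many values of genes not called in the main fit. The total is therefore no measure of stability. The lost calls were those of Kitl and Pla2g5 after TAC, each of which passed under 5 of 13 alternatives. With the replicate block at 1 month 0 genes passed and Fignl1 went to 0.28. Same-numbered libraries there had correlations of 0.239, 0.12, -0.107 and 0.0782, and differently numbered ones had -0.283 to 0.194. So few values cannot settle whether same-numbered libraries are paired. With a library left out, log2 fold changes that crossed 0 ranged at 1 month from -0.22 to 0.10 for Efnb2 and from -0.56 to 1.06 for Fignl1. At 3 months they ranged from -0.35 to 0.0069 for Efnb2, -0.33 to 0.055 for Fam81a and -0.073 to 0.14 for Tmod1. After TAC they ranged from -0.11 to 0.66 for Fignl1 and -0.073 to 0.080 for Ccdc107. In the interaction they ranged from -0.27 to 0.12 for Fam81a, -0.31 to 0.45 for Fignl1 and -0.18 to 0.00054 for Ccdc107.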
